A study of Mus musculus with 6 samples.

Results

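The regions described here are intergenic peaks of the transcription factors C/EBPα, IRF8 and JUNB that lie within 100 kb of a transcription start site (TSS) in mouse bone marrow-derived macrophages (BMDMs). A peak was taken when its deposited annotation began with "Intergenic", its deposited distance to the nearest TSS was at most 100000 bp on either side, and its detailed annotation named neither a repeat element nor a CpG island. Of 134964 peaks in the 6 deposited lists, 58065 were intergenic and 33603 met the whole rule, which is 24.9% of all peaks and 57.9% of the intergenic ones. The rule removed 11137 intergenic peaks beyond 100 kb, 13021 on repeats and 304 on CpG islands. It used position and annotation only, not the score or the IL-4 response. They are called near intergenic peaks in the following text.

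The samples came from Wt mice of 8-12 weeks on the C57BL/6 background. Bone marrow was cultured with L929 supernatant, a source of macrophage colony-stimulating factor (MCSF), over 6 days to obtain macrophages. These were harvested without IL-4 (control) or 1 h after addition of 20 ng/ml IL-4. Chromatin was cross-linked with DSG and formaldehyde, and each of the 3 antibodies was used once in each condition. With 1 sample per group there was no spread between replicates, no test of the condition was possible, and sequencing depth is unknown. All intervals given are 95% Wilson intervals of a share, or Newcombe intervals of a difference between shares in percentage points. They cover counting error over peaks only, and peaks of a list are not replicates of a condition. The 2 library kits named in the labels were not assigned to samples, so kit, depth and IL-4 cannot be told apart.

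C/EBPα is a basic leucine zipper factor that drives myeloid differentiation. IRF8 is an interferon regulatory factor of monocytes, macrophages and dendritic cells that often binds DNA together with the ETS factor PU.1. JUNB is a subunit of AP-1, which binds as a dimer with FOS-type or related proteins. Intergenic sites of such factors in macrophages are often enhancers, stretches of DNA that act on genes at a distance. IL-4 signals through the transcription factor STAT6 and turns macrophages toward alternative activation.

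IRF8 had the most near intergenic peaks, 8981 in control and 9918 after IL-4, followed by C/EBPα with 6404 and 6503, and JUNB with 1138 and 659. These were 23.9% and 23.6% of the IRF8 lists, 26.2% and 26.4% of the C/EBPα lists, and 28.9% and 28.3% of the JUNB lists. The 6 whole lists held between 2325 peaks (JUNB after IL-4) and 42076 peaks (IRF8 after IL-4). The label "intergenic" holds for the annotation the authors used and not for every gene model: 20.6% to 21.4% of near intergenic peaks in each list had their centre inside a GENCODE gene, about equally protein-coding genes (9.49% to 11.1%) and long noncoding RNA genes (9.71% to 11.7%). The peaks just inside the distance limit lay near Thbs1, at -99971 bp (IRF8 after IL-4, score 10.37) and -99972 bp (C/EBPα control, score 15.09). The peaks just outside were IRF8 control peaks near Gm5086 at 100043 bp (score 4.30) and near E030018B13Rik at -100051 bp (score 3.36).

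The centre sequences shown next belong to the highest-scoring near intergenic peak of each factor found in both conditions and to the highest-scoring one found only after IL-4. For JUNB the highest-scoring peak found only in control is shown too. They are 200 bp of the mm10 plus strand around the midpoint of the deposited peak, read from the reference genome. Capitals mark exact matches, on either strand, to the letters searched for the factor itself, and to TTCNNNNGAA, the letters of a STAT6-type site. The letters were TTGCNNAA for C/EBP, TGANTCA for AP-1, GAAANNGAAA for IRF and GGAANNGAAA for the composite element of an ETS factor with an IRF. AGGAAGT, a PU.1-type ETS core, was also counted but not capitalised, and it can overlap the composite letters. A match is a description of the sequence and was not a measure of binding.

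The C/EBPα windows hold 3 matches to the STAT6-type letters in the IL-4-only peak and no exact match in the strongest near intergenic peak.
C/EBPα, both conditions, Lyz1, chr10:117301914-117302113: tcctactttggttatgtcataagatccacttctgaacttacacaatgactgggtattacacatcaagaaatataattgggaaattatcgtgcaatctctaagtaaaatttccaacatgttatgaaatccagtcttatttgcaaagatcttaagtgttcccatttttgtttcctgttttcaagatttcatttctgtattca
C/EBPα, IL-4 only, E230029C05Rik, chr7:90026141-90026340: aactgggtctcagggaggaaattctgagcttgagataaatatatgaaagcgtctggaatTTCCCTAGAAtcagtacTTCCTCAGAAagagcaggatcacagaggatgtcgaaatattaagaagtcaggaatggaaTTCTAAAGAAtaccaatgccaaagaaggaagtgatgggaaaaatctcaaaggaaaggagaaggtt

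Among the IRF8 windows the peak found in both conditions holds the composite letters, and the IL-4-only peak holds STAT6-type and IRF letters.
IRF8, both conditions, Gm13498, chr2:50842019-50842218: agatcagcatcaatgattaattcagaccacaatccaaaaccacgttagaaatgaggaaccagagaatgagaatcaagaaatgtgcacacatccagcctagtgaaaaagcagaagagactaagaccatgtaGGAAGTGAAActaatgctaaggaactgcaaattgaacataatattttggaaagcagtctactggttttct
IRF8, IL-4 only, Spcs3, chr8:54487055-54487254: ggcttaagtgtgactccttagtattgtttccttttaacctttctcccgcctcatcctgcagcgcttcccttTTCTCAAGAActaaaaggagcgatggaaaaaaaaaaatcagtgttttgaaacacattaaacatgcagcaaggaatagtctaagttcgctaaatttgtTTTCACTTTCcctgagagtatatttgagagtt

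JUNB had 3 AP-1 matches in its strongest near intergenic peak, STAT6-type letters without AP-1 letters in the IL-4-only peak, and both kinds in the control-only peak.
JUNB, both conditions, Gm1631, chr2:71644075-71644274: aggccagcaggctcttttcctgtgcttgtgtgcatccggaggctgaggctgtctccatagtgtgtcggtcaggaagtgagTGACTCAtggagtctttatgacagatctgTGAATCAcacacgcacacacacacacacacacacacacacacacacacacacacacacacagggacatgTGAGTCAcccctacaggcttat
JUNB, IL-4 only, Arg1, chr10:24930249-24930448: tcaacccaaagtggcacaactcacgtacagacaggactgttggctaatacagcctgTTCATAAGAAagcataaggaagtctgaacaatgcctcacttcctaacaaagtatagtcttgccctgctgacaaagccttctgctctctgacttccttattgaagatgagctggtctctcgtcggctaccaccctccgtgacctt
JUNB, control only, Tmprss13, chr9:45300581-45300780: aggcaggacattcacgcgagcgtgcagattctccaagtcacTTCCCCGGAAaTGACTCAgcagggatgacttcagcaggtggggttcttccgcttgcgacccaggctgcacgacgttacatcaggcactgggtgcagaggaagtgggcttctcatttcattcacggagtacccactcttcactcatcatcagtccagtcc

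The window near Lyz1, a lysozyme gene of phagocytes, belonged to the highest-scoring near intergenic C/EBPα peak of the control list, at -9145 bp from the TSS. The C/EBPα score there was 229.61 in control and 225.99 after IL-4, the IRF8 score 127.47 and 113.22 and the JUNB score 8.74 and 5.89, so all 3 factors had a peak there in both conditions. The E230029C05Rik window lay at -2919 bp from its TSS. It was listed for C/EBPα only after IL-4 (54.59) and for IRF8 only after IL-4 (15.09), and JUNB had no peak there in either condition. GENCODE places the centre of this window inside E230029C05Rik, a noncoding transcript, with no exon in the window.

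For IRF8, the strongest near intergenic peak lay at -67566 bp from the pseudogene Gm13498 and had almost the same score in both conditions, 310.32 and 310.38. C/EBPα was listed at the same place with 120.79 and 123.12, and JUNB with 38.22 and 8.94. The IL-4-only peak 42844 bp downstream of Spcs3, a signal peptidase subunit, scored 53.47 for IRF8, 17.93 for C/EBPα and 2.74 for JUNB after IL-4. None of the 3 factors had a peak there in control.

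At the JUNB peak at -75243 bp from Gm1631 the score was 57.35 in control and 22.32 after IL-4, with IRF8 at 26.01 and 31.55. The JUNB peak at -2878 bp from Arg1, the arginine-hydrolysing enzyme used as a marker of alternative activation, scored 20.44 after IL-4 and was not listed in control. The other factors were already there in control, C/EBPα with 45.42 and IRF8 with 29.46, and scored 97.72 and 41.89 after IL-4. At Tmprss13, a membrane serine protease, JUNB scored 24.40 in control and was not listed after IL-4, although C/EBPα (12.91 and 10.25) and IRF8 (9.40 and 21.82) were listed in both conditions.

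Near intergenic peaks lay mostly upstream of the nearest TSS, for C/EBPα and IRF8 more often than genome positions not matched for distance. By the deposited distances, 73.0% of C/EBPα peaks were upstream in both conditions, as were 73.0% (control) and 73.1% (IL-4) for IRF8, and 70.9% (control) and 68.6% (IL-4) for JUNB. Positions taken every 1 kb across the genome outside repeats and under the same intergenic and distance rule (488885 positions) were upstream in 66.6%. With the TSS of both taken from RefSeq, the share of control peaks exceeded that of the genome by 5.47 points (4.31 to 6.60) for C/EBPα, 5.07 points (4.08 to 6.04) for IRF8 and 4.18 points (1.39 to 6.83) for JUNB. With GENCODE start sites the excess was 4.12 points (2.87 to 5.34) for C/EBPα, 3.95 points (lower bound 2.90) for IRF8 and 2.68 points (-0.27 to 5.55) for JUNB, so that the JUNB interval then included 0. For JUNB after IL-4 the difference was 1.25 points with RefSeq, and its interval (-2.51 to 4.79) included 0 as well. Only peaks that passed the intergenic and distance rule under RefSeq entered these differences, 92.1% to 94.1% of each control list. The genome positions were not matched to the peaks for distance. Since the upstream share falls with distance, the distances of the peaks enter the differences.

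They were also concentrated toward the TSS. The number of C/EBPα control peaks within 5 kb was 1.52 times the number the genome positions would give, and the ratio fell through 1.36, 1.19 and 0.92 in the bins of 5 to 10, 10 to 25 and 25 to 50 kb to 0.61 between 50 and 100 kb. IRF8 control peaks gave 1.47 within 5 kb and 0.63 beyond 50 kb. The range was narrower for JUNB, 1.29 to 0.65 in control and 1.26 to 0.66 after IL-4. The upstream share itself depended on the distance: it was 94.1% within 5 kb and 59.8% beyond 50 kb for IRF8 control peaks, against 88.9% and 56.5% of the genome positions. These shares used the deposited distances for the peaks and RefSeq start sites for the genome positions, so the gene sets differ in part. Score did not follow distance in the same way, since the median C/EBPα control score stayed between 11.73 and 12.32 in the 5 bins.

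**Figure D1:**
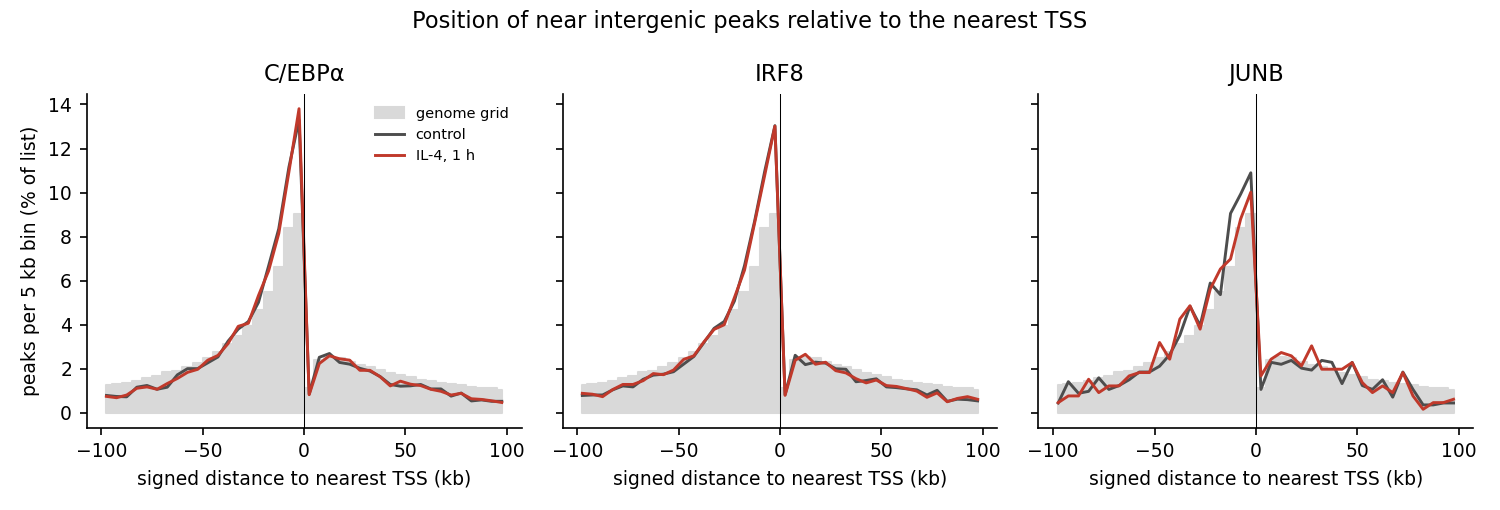
Share of the near intergenic peaks of each list (%, y axis) in 5 kb bins of signed distance to the nearest TSS (kb, x axis, negative is upstream), in control (dark line) and after IL-4 (red line), with the genome positions in grey. The lines of both conditions lie on each other for C/EBPα and IRF8, and all lists exceed the grey area just upstream of the TSS and fall below it near the ends.

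Between conditions, most C/EBPα and IRF8 near intergenic peaks were found again and most JUNB peaks were not. A control peak counted as retained when any peak of the same factor after IL-4 overlapped it by at least 1 bp. Retained were 5208 of 6404 C/EBPα peaks (81.3%, 80.4 to 82.3), 7264 of 8981 IRF8 peaks (80.9%, 80.1 to 81.7) and 410 of 1138 JUNB peaks (36.0%, 33.3 to 38.9). The remaining control-only peaks were 18.7% for C/EBPα, where 21.4% of the whole list had no IL-4 peak, 19.1% for IRF8, where it was also 21.4%, and 64.0% for JUNB, where it was 64.2%. Near intergenic peaks were retained more often than all other peaks of their list by 3.62 points (2.48 to 4.74) for C/EBPα and by 3.04 points (2.09 to 3.98) for IRF8. For JUNB the difference was 0.34 points (-2.93 to 3.67). Against intergenic peaks farther than 100 kb from a TSS the intervals included 0 for each factor, with 2.07 points (-0.20 to 4.46) for C/EBPα and 1.33 points (-0.52 to 3.26) for IRF8.

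After IL-4, 1328 of 6503 C/EBPα peaks had no control peak (20.4%, against 22.0% of the whole list). For IRF8 there were 2708 of 9918 (27.3%, against 30.4%), and for JUNB 242 of 659 (36.7%, against 39.2%). Against the other peaks of the list the IL-4-only share differed by -2.09 points for C/EBPα (-3.23 to -0.92), -4.09 points for IRF8 (-5.10 to -3.07) and -3.49 points for JUNB (-7.80 to 0.92). The parts most alike showed little of this. Against intergenic peaks beyond 100 kb it was 0.48 points (-1.90 to 2.72) for C/EBPα and -0.46 points (-2.50 to 1.52) for IRF8. For JUNB it was 2.35 points (-6.10 to 10.21). Against first-intron peaks it was -2.92 points (-4.60 to -1.26) for C/EBPα and -0.27 points (-1.75 to 1.19) for IRF8. Against later-intron peaks these were -0.01 points (-1.48 to 1.45) and -0.58 points (-1.86 to 0.70). The counts of IL-4-only and control-only peaks, 2708 and 1717 for IRF8 and 242 and 728 for JUNB, moved with the length of the lists. When the lists of each factor were reduced to equal length by score, 2053 of 8989 IRF8 peaks after IL-4 were IL-4-only and 7002 of 8981 control peaks were retained. For JUNB 334 of 659 were then IL-4-only and 319 of 675 retained. Neither factor then had a marked excess of one class over the other, as lists of equal length largely require.

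Peaks found in 1 condition scored low. The median score of control-only C/EBPα peaks was 5.62 (quartiles 4.32 and 7.39) and that of retained peaks 15.56 (8.33 and 32.26). IL-4-only C/EBPα peaks had a median of 6.00. The medians were 5.35, 14.59 and 5.03 for control-only, retained and IL-4-only IRF8 peaks, and 6.79, 10.01 and 4.76 for JUNB. The score is the number the authors deposited with each peak, its scale is not stated, and it is therefore compared by differences and by rank within a list.

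Among the highest-scoring peaks of 1 condition, several were single-factor events. Cog2, a subunit of a Golgi tethering complex, had a control-only C/EBPα peak (23.23) with no IRF8 or JUNB peak. Gja5, which encodes a gap junction protein, had a control-only IRF8 peak (26.02), and Ndfip1, an adaptor of NEDD4 ubiquitin ligases, had another (25.93), both without any peak of the other factors. Stoml1 and Il20ra, a subunit of the IL-20 receptor, lost a JUNB peak (21.16 and 20.17 in control) where IRF8 stayed high, with 197.77 and 195.48 at Stoml1 and 159.76 and 147.13 at Il20ra. After IL-4, C/EBPα was newly listed upstream of Cry1, a circadian repressor (48.38, with IRF8 at 3.02), and B4galt6, a galactosyltransferase (44.37, with IRF8 at 10.27). IRF8 was newly listed at -1649 bp from Ets1, an ETS transcription factor (46.31), where C/EBPα scored 3.02 in control and 20.04 after IL-4, and at -1201 bp from Lace1 (45.54).

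At retained near intergenic peaks the C/EBPα scores were balanced around no difference, the IRF8 score was slightly higher and the JUNB score was lower after IL-4. In one-to-one pairs of control and IL-4 peaks, the median difference of IL-4 minus control was 0.01 for C/EBPα (5161 pairs, quartiles -4.40 and 5.04), 0.95 for IRF8 (7148 pairs, -3.79 and 6.87) and -3.13 for JUNB (409 pairs, -7.58 and 0.11). The IL-4 score was the higher one in 2581 C/EBPα pairs, 3998 IRF8 pairs (55.9%) and 106 JUNB pairs (25.9%). Over the whole lists the medians were -0.04, 0.83 and -3.39. A score can shift over a whole library, and the rank of each peak in its own list does not carry such a shift. The rank percentile does depend on the length of the list, however. The IRF8 list went from 37525 to 42076 peaks and the JUNB list from 3940 to 2325. By rank, 10.9% of C/EBPα pairs stood at least 20 percentile points higher after IL-4 (10.6% over the whole list) and 570 of the 5161 at least 20 points lower (11.3% over the whole list). For IRF8 these were 15.3% (whole list 15.7%) and 9.01% (9.30%), and for JUNB 20.8% (19.6%) and 35.2% (31.4%). The near intergenic pairs thus moved in rank about as often as all pairs of their factor.

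**Figure D2:**
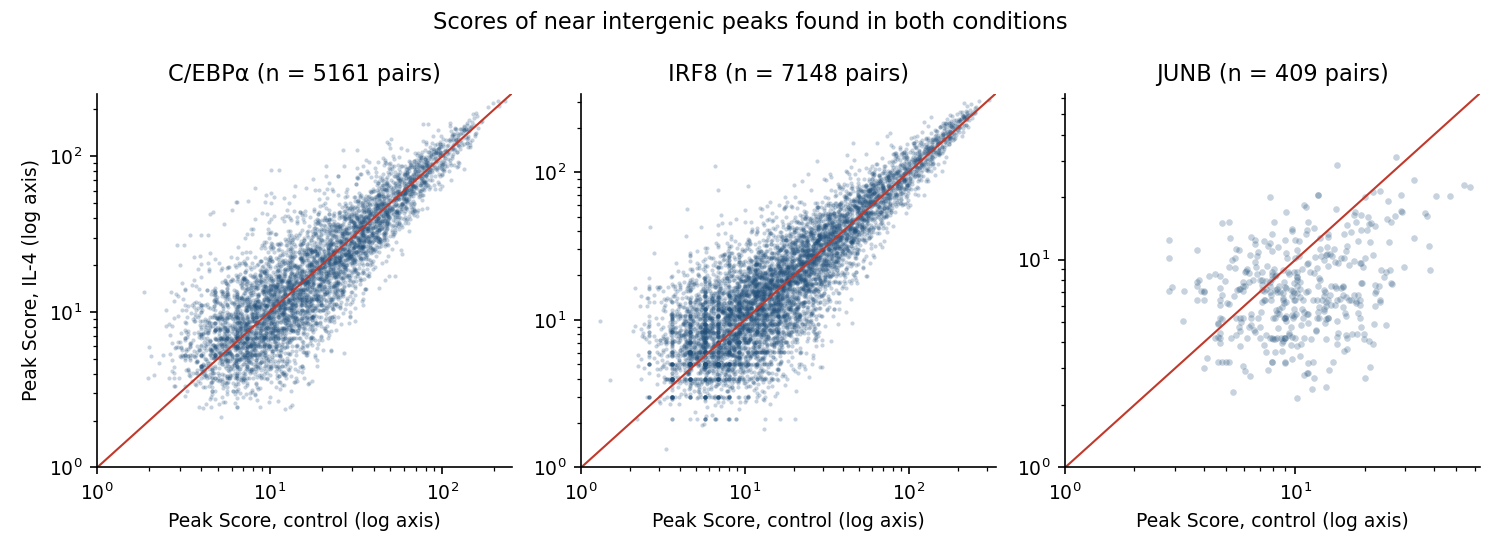
Peak Score in control (x axis) against Peak Score after IL-4 (y axis), both on log axes and with no stated unit, for near intergenic peaks found in both conditions, with the line of equal scores in red. The points of C/EBPα (5161 pairs) lie around the line, those of IRF8 (7148 pairs) slightly above it, and 25.9% of the 409 JUNB points lie above it.

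Whether a control peak was found again went with its score and its partners, while no difference by side or distance was detectable. In the lowest of 4 equal score classes of the list, 51.2% of C/EBPα, 51.8% of IRF8 and 19.0% of JUNB near intergenic peaks were retained. In the highest class these were 99.9%, 99.9% and 62.8%. Upstream and downstream peaks differed by 0.26 points for C/EBPα (-1.85 to 2.46), 0.43 points for IRF8 (-1.38 to 2.30) and -2.87 points for JUNB (-9.11 to 3.20). Peaks within 5 kb and beyond 50 kb differed by 2.90 points (-0.39 to 6.10), -1.02 points (-3.94 to 1.84) and 0.07 points (-9.64 to 10.16), so that every one of these 6 intervals included 0.

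Peaks that other factors shared in control were retained more often. C/EBPα peaks without IRF8 or JUNB were retained in 72.3%, those with 1 of them in 85.2% and those with both in 93.1%. The shares were 74.6%, 87.0% and 94.8% for IRF8 and 19.0%, 30.3% and 40.2% for JUNB. Shared peaks also scored higher, with a median C/EBPα score of 8.82, 13.89 and 22.35 for 0, 1 and 2 other factors. Among peaks below the median score of the list, those with both other factors exceeded those with none by 20.46 points (14.08 to 26.01) for C/EBPα, 20.58 points (13.69 to 26.26) for IRF8 and 21.41 points (12.65 to 26.96) for JUNB. Above the median the differences were 4.42 points (2.75 to 6.07), 2.77 points (1.47 to 3.77) and 1.03 points (-16.07 to 18.46). This split did not hold score equal. Below the median, peaks with none and with both had median scores of 6.32 and 7.38 for C/EBPα and 5.71 and 6.83 for IRF8. For JUNB they were 5.52 and 5.67. Above the median the C/EBPα scores were 19.35 and 34.77. Retained C/EBPα peaks were also wider than control-only ones (median 300 bp against 190.5 bp). The part of the remaining score difference and of width was not tested.

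Peaks that held the letters of the factor itself were retained more often, but seldom within a score class. C/EBPα peaks with C/EBP letters were retained 7.48 points more often than those without (5.55 to 9.35). IRF8 peaks with IRF or composite letters exceeded those without by 10.12 points (8.38 to 11.75), and JUNB peaks with AP-1 letters by 11.09 points (5.44 to 16.55). Within the 4 score classes, 10 of the 12 intervals of this difference included 0. The exceptions were the third class of C/EBPα, with -2.76 points (-5.42 to -0.46), and the second class of JUNB, with 12.72 points (2.52 to 22.14).

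**Figure D3:**
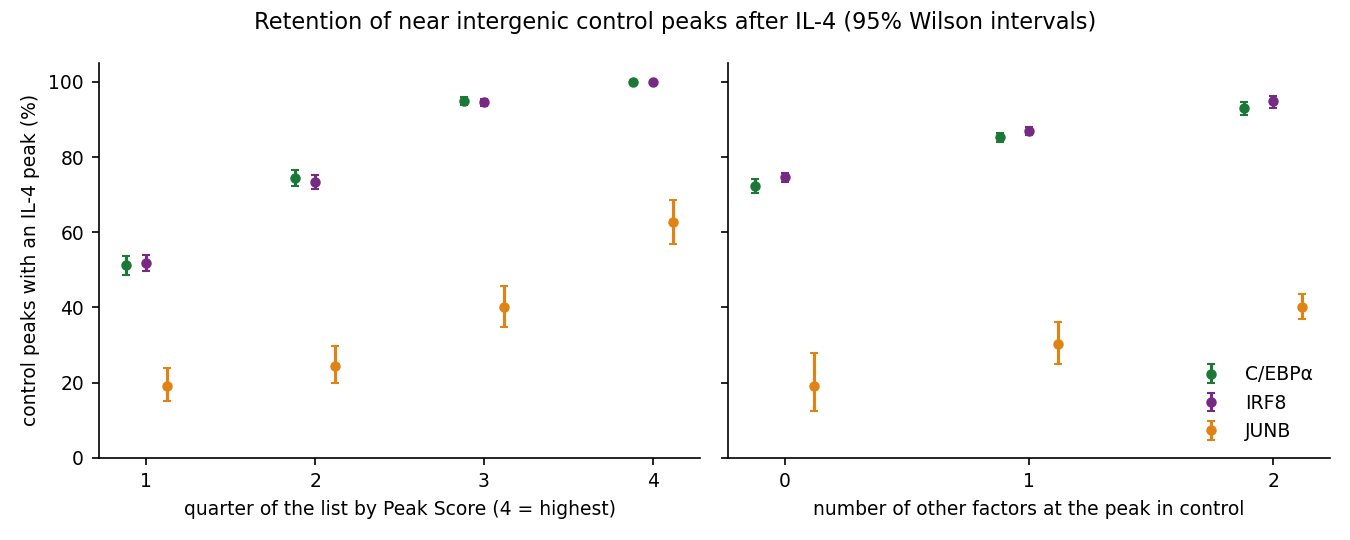
Share of near intergenic control peaks that overlap an IL-4 peak of the same factor (%, y axis, 95% Wilson intervals), by score class of the list (left, 4 is the highest) and by the number of other factors at the peak in control (right). The share rises from left to right in both panels for each factor, and the JUNB points lie below those of C/EBPα and IRF8 throughout.

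The 3 factors shared many near intergenic sites, and JUNB was rarely alone. In control, 61.3% of C/EBPα peaks overlapped an IRF8 peak (58.1% over the whole list) and 13.5% a JUNB peak (11.6%). Of JUNB peaks, 76.2% overlapped C/EBPα (72.3% over the whole list), 83.3% overlapped IRF8 (80.8%) and 8.79% overlapped neither (10.7%). IRF8 had the most peaks of its own, with 54.9% overlapping neither of the others (60.3% over the whole list). Near intergenic peaks shared a partner more often than the other peaks of their list: the differences in control were 4.31 points (2.91 to 5.70) for C/EBPα with IRF8, 7.05 points (5.89 to 8.22) for IRF8 with C/EBPα, 5.45 points (2.40 to 8.39) for JUNB with C/EBPα and 3.47 points (0.77 to 6.03) for JUNB with IRF8. The other peaks include those on repeats and CpG islands, and sharing was not compared with far intergenic or intron peaks. Score was not held equal. The median score of near intergenic control peaks was 12.04 for C/EBPα (11.20 over the whole list), 11.24 for IRF8 (10.34) and 7.82 for JUNB (7.88). After IL-4, 64.6% of C/EBPα peaks overlapped IRF8, and 8.06% overlapped one of the fewer JUNB peaks.

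Where 2 factors overlapped in control, their centres lay somewhat farther apart than those of the control and IL-4 peaks of the same factor. Only overlapping peaks were measured, which by itself keeps the centres close. The median distance between centres in control was 45 bp for C/EBPα and IRF8, 41 bp for C/EBPα and JUNB and 39 bp for IRF8 and JUNB. Between the control and the IL-4 peak of the same factor it was 23 bp for C/EBPα, 33 bp for IRF8 and 31 bp for JUNB.

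Merged over all 6 lists, the near intergenic peaks made 15035 regions, with a median width of 315 bp. Of these, 4411 (29.3%) came from 1 list and 344 (2.29%) had a peak of every factor in both conditions. IRF8 alone was the most frequent state in control with 5126 regions (34.1%), followed by C/EBPα with IRF8 (3429, 22.8%), C/EBPα alone (2430, 16.2%) and all 3 factors (880, 5.85%). JUNB alone made 97 regions (0.645%). The same set of factors was found in both conditions at 7609 regions (50.6%). No such shares are given here for merged regions of the whole lists.

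JUNB accounted for most changes at regions that held all 3 factors. Of the 880 such regions in control, 344 (39.1%) still held all 3 after IL-4 and 439 (49.9%) held C/EBPα and IRF8 without JUNB. Over the whole JUNB list 64.2% of control peaks had no IL-4 peak, so this loss is not a trait of these regions. The changes of state in this paragraph were not compared with merged regions of the whole lists. At regions with C/EBPα and IRF8 only, 2482 of 3429 (72.4%) kept that state and 130 (3.79%) also had JUNB after IL-4. A further 2803 regions had no peak in control. Of these, 1950 (69.6%) had IRF8 only after IL-4, 579 (20.7%) had C/EBPα only and 220 (7.85%) had both.

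The letters of each factor were more frequent in its own control windows than in those of the other factors. C/EBP letters were found in 34.3% of C/EBPα control windows (34.3% over the whole list), AP-1 letters in 59.7% of JUNB control windows (55.3%), and the composite letters in 14.7% of IRF8 control windows (15.0%). The composite letters were in 6.53% of C/EBPα and 6.68% of JUNB control windows. Within the IRF8 control windows they did not stand out. AP-1 letters were in 16.8% of these, C/EBP letters in 14.7%, the PU.1-type core in 29.0% and IRF letters in 8.81%. Of 24445 windows at genome positions under the same rule, 9.29% held C/EBP letters, 6.79% AP-1, 2.72% IRF and 5.20% the PU.1-type core, and 488 of them held the composite letters. The share rose with the score, from 21.7% in the lowest to 48.8% in the highest class for C/EBP letters in C/EBPα control peaks, and from 45.6% to 71.3% for AP-1 letters in JUNB control peaks. It fell with the number of partners: C/EBP letters were in 42.2% of C/EBPα control peaks without another factor, 30.4% with 1 and 26.1% with 2. IRF or composite letters were likewise in 26.8%, 18.1% and 12.3% of IRF8 control peaks.

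STAT6-type letters were more frequent in peaks found only after IL-4 than in those found only in control. TTCNNNNGAA, which reads the same on both strands, was in 6.14% of genome windows. Among C/EBPα near intergenic peaks it was in 295 of 1328 IL-4-only windows (22.2%, 20.1 to 24.5), 52 of 1196 control-only windows (4.35%, 3.33 to 5.66) and 8.01% of retained windows. For IRF8 the shares were 15.3% (413 of 2708), 4.31% (74 of 1717) and 7.39%. For JUNB they were 23.6% (57 of 242), 5.49% (40 of 728) and 9.27%. IL-4-only exceeded control-only peaks by 17.87 points (15.35 to 20.39) for C/EBPα, 10.94 points (9.26 to 12.59) for IRF8 and 18.06 points (12.80 to 23.97) for JUNB. Over the whole lists the differences were 16.67, 7.97 and 11.86 points.

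Within the IL-4-only peaks the letters were the more frequent the higher the score. For C/EBPα they were in 15.3% of 752 peaks of the lowest score class, 24.7% of 417 in the second, 44.2% of 138 in the third and 76.2% of 21 in the highest. For IRF8 the shares were 10.6%, 14.3%, 30.7% and 75.6%, the last of 41 peaks. JUNB showed no such order, with 24.7%, 18.3%, 22.7% and 33.3%. At retained peaks the letters went with a rise in rank: 18.8% of C/EBPα peaks that stood 20 points or more higher after IL-4 held them, against 3.16% of those that stood as much lower, and the shares were 13.1% and 4.04% for IRF8 and 18.8% and 6.25% for JUNB. The median score difference of retained C/EBPα peaks with the letters was 4.69 (415 pairs, quartiles -0.78 and 16.20) and without them -0.26 (4746 pairs, -4.80 and 4.34). Over the whole C/EBPα list these medians were 5.70 and -0.30. STAT6 itself was not among the antibodies analysed here.

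The letters of the factors themselves showed smaller or opposite differences. C/EBP letters were in 22.9% of IL-4-only and 25.3% of control-only C/EBPα peaks, a difference of -2.36 points (-5.71 to 0.98). IRF letters were in 8.38% and 5.53% of IRF8 peaks, a difference of 2.85 points (1.31 to 4.33). The composite letters were in 7.87% and 7.98% of these, a difference of -0.11 points (-1.79 to 1.49). AP-1 letters were less frequent in IL-4-only JUNB peaks (40.5%) than in control-only ones (55.5%), a difference of -15.00 points (-21.97 to -7.74), and most frequent in retained ones (67.1%).

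**Figure D4:**
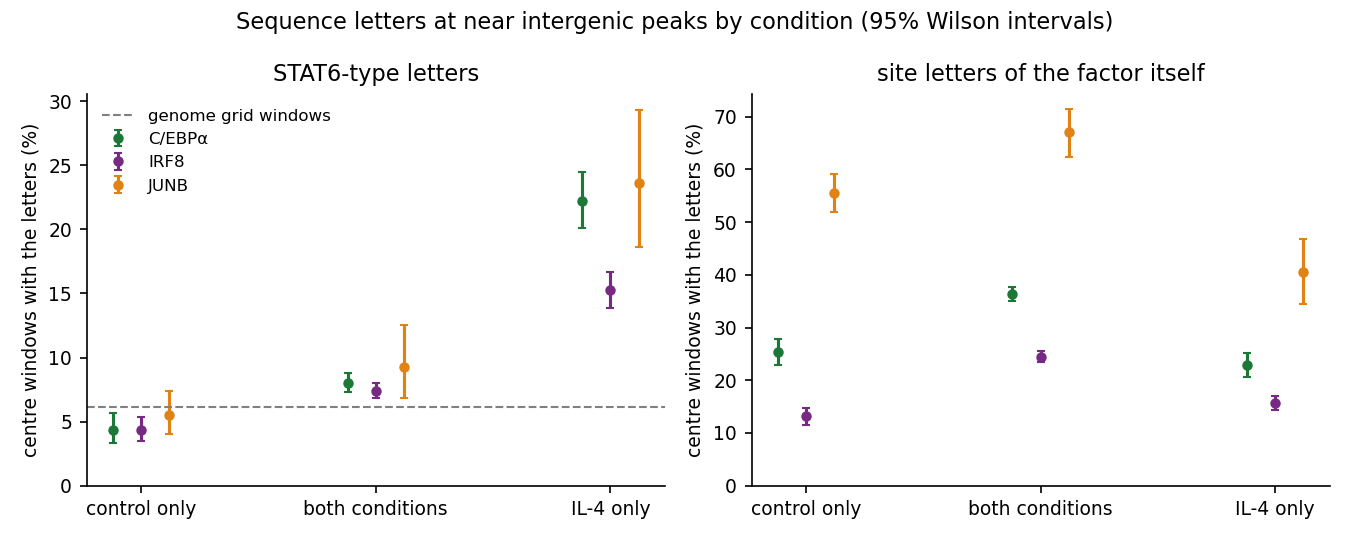
Share of 200 bp centre windows (%, y axis, 95% Wilson intervals) that hold STAT6-type letters (left, dashed line at the genome share of 6.14%) or the letters of the factor itself (right), for near intergenic peaks found only in control, in both conditions or only after IL-4. On the left the IL-4-only points lie above the others for all 3 factors, and on the right the points of peaks found in both conditions are the highest.

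Some IL-4-only sites were shared by C/EBPα and IRF8. Of the 1328 IL-4-only C/EBPα peaks, 219 (16.5%, 14.6 to 18.6) overlapped an IRF8 peak that was itself IL-4-only, against 14.2% (13.3 to 15.2) of the IL-4-only peaks of the whole list. Of the 1196 control-only C/EBPα peaks, 89 (7.44%, 6.09 to 9.07) overlapped a control-only IRF8 peak, against 7.31% over the whole list. The whole IRF8 lists held 12804 IL-4-only and 8043 control-only peaks, and this imbalance enters the comparison. At most control-only JUNB peaks the other factors were listed after IL-4: of 728 such peaks, 71.0% (67.6 to 74.2) overlapped a C/EBPα peak and 79.7% (76.6 to 82.4) an IRF8 peak of the IL-4 condition. Over all 2530 control-only JUNB peaks the shares were 66.1% (64.2 to 67.9) and 76.4% (74.7 to 78.0).

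Near intergenic regions were nearest to 6331 genes, which is 42.4% of the 14930 genes nearest to any peak of the 6 lists. Of these genes 3141 (49.6%) had 1 region, and 120 (1.90%) had 10 or more. Lists of genes of macrophage biology stood above the share of all genes. A region was found at 43 of 51 macrophage transcription factors (84.3%, 72.0 to 91.8), 29 of 35 genes of alternative activation (82.9%, 67.3 to 91.9), 34 of 43 surface and phagocytic receptors (79.1%), 22 of 30 chemokines and chemokine receptors (73.3%), 19 of 27 lipid genes (70.4%) and 26 of 37 Toll-like receptor and inflammasome genes (70.3%). Interferon genes were at 14 of 32 (43.8%, 28.2 to 60.7), close to all genes, and ribosomal protein genes at 15 of 63 (23.8%, 15.0 to 35.6). Genes of liver, neuron, muscle and lymphocyte were contrast genes: only 20 of the 50 listed were nearest to any peak, and 10 of these 20 had a region (interval 29.9 to 70.1). The size of the intergenic space around each gene enters these shares and was not tested.

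**Figure D5:**
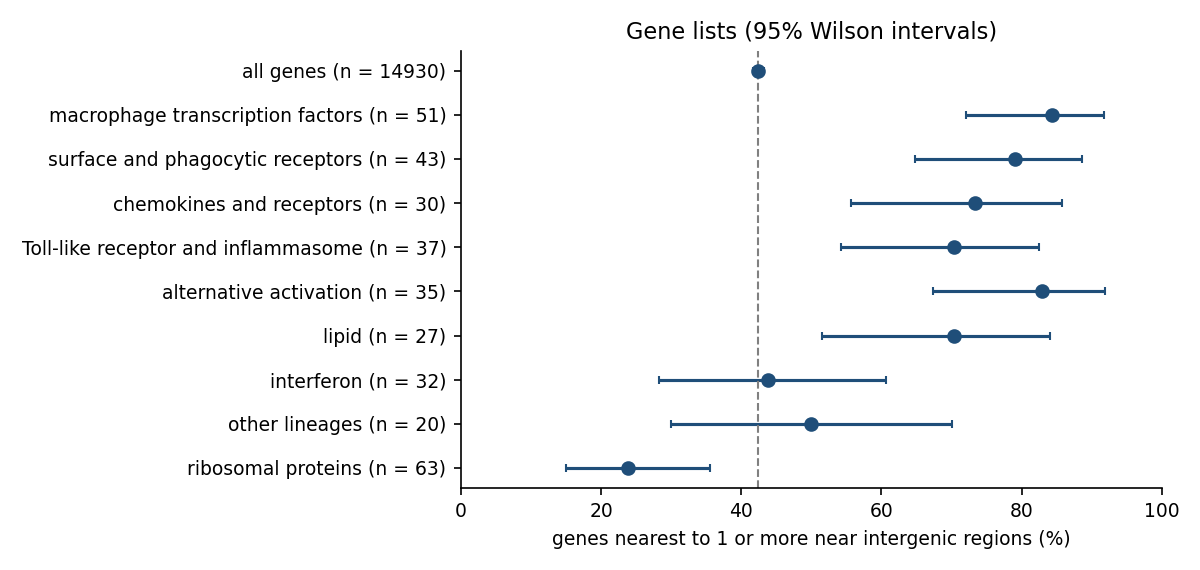
Share of the genes of each list that are nearest to 1 or more near intergenic regions (%, x axis, 95% Wilson intervals), with the number of genes in brackets and the share of all genes as a dashed line at 42.4%. The 6 macrophage lists lie between 70.3% and 84.3%, interferon and other-lineage genes near the line, and ribosomal protein genes at 23.8%.

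Genes of alternative activation had the largest IL-4-only share of C/EBPα among the 6 macrophage lists. Of 73 C/EBPα near intergenic peaks after IL-4 at these genes, 25 had no control peak (34.2%, 24.4 to 45.7), against 20.4% over all near intergenic C/EBPα peaks. The share was 23.4% at macrophage transcription factors, 21.3% at Toll-like receptor genes, 15.0% at chemokine genes, 10.2% at surface receptors and 6.25% at lipid genes. For IRF8 the alternative activation genes did not stand apart, with 24 of 95 (25.3%) against 27.3%. Peaks of the same gene share its surroundings, 4 of the 25 lay near Ch25h, and some genes of the list are known to respond to IL-4 in these cells. The gene lists were chosen with earlier results of these data known, and a difference between lists was not tested.

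The regions named next for single genes were picked after their values were seen, among genes named by the number of their regions. Edn1, which encodes endothelin-1, had 14 regions, with IRF8 newly listed at -9035 bp (35.02 after IL-4, C/EBPα 6.09, STAT6-type letters present). At -52406 bp C/EBPα was newly listed with 22.26, and IRF8 scored 10.93 in control and 46.21 after IL-4. Ch25h, the cholesterol 25-hydroxylase gene, had 11 regions, all downstream of its TSS, and 4 of them held a C/EBPα peak only after IL-4, with scores of 4.11, 10.72, 11.39 and 6.09. At the other alternative activation genes both directions occurred. Igf1, an insulin-like growth factor gene, had 11 regions, all upstream, and at -53110 bp C/EBPα scored 37.32 in control and 78.33 after IL-4 while JUNB was listed only in control. Pparg, which encodes a lipid-sensing nuclear receptor, had 9 regions, and its only JUNB peak (6.44 at -37993 bp) was absent after IL-4.

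Arg1 had 4 regions. The region at -22955 bp held C/EBPα (65.03 in control, 91.94 after IL-4) and IRF8 (23.60 and 36.67) without JUNB. Those at -53379 bp and -63289 bp were listed only after IL-4, for C/EBPα (7.62) and for IRF8 (7.13). Together with the region nearest to the TSS, every Arg1 peak scored higher or was newly listed after IL-4.

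Several named genes of the macrophage lists had a region at which both C/EBPα and IRF8 scored higher after IL-4. At Tlr4, the receptor for bacterial lipopolysaccharide, the region at 24400 bp scored 49.41 and 113.58 for C/EBPα and 21.83 and 51.39 for IRF8 in control and IL-4, and it held STAT6-type letters. The next region, at 29460 bp, went the other way, with 48.19 and 31.06 for C/EBPα and 26.27 and 8.35 for IRF8. At Cd44, a hyaluronan receptor with 13 regions, the region at -85509 bp scored 46.77 and 92.18 for C/EBPα and 7.74 and 18.30 for IRF8, also with STAT6-type letters. At its region at -47083 bp the C/EBPα score was 10.75 in control and 7.92 after IL-4. Batf3, an AP-1 family gene with 11 regions, had one at 25482 bp where the C/EBPα score was 52.01 and 100.58, the IRF8 score 10.21 and 32.87 and the JUNB score 7.77 and 12.01. Here JUNB was higher after IL-4, unlike at most retained sites. The C/EBPα score of the Batf3 region at 27411 bp was lower after IL-4, 14.38 against 23.30 in control. Nfkbiz, a gene of the Toll-like receptor list with 8 regions, went mostly the other way. Its region at 23101 bp scored 45.65 and 30.14 for C/EBPα and 48.57 and 17.80 for IRF8. Its region at 67510 bp was higher after IL-4, with 53.15 and 66.92 for C/EBPα and 93.43 and 97.73 for IRF8.

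Ccl2, a monocyte-attracting chemokine gene, had 8 regions. IRF8 scored 4.38 in control and 37.12 after IL-4 at -2732 bp, where neither C/EBPα nor JUNB was listed. At -12709 bp all 3 factors were listed in both conditions, with IRF8 at 180.45 and 243.15, C/EBPα at 42.43 and 66.99, and JUNB at 20.02 and 10.21. Fos, an AP-1 subunit gene, had 15 regions, the most of the macrophage transcription factors. The C/EBPα score at 16742 bp was 49.72 and 82.17, and the JUNB score at -36181 bp was 8.65 and 4.22. At Ifnb1, the interferon beta gene, the region at -14752 bp held C/EBPα (134.10 and 119.71) and IRF8 (63.43 and 74.15) in both conditions, and a JUNB peak in control (7.63).

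The genes with the most regions were not all genes of known macrophage function. S1pr1, a receptor for sphingosine-1-phosphate, had 21 regions, 10 upstream and 11 downstream, with IRF8 at 224.24 in control and 209.22 after IL-4 at -14323 bp. The noncoding gene Gm19510 had 21, Irf2bp2, a corepressor gene, and Zfp217, a zinc finger gene, had 18 each, and 1700029N11Rik and Bmp2k (a kinase) had 17 each. The highest count, 23, carried the symbol Mir3110, but this symbol stood for 19 regions on chromosome 8 and 4 on chromosome 2. It was the only one of the 6331 symbols with regions on more than 1 chromosome, and RefSeq places that microRNA on chromosome X, so the count does not belong to a single gene.

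Many near intergenic regions lay in runs. With gaps of at most 12.5 kb, 9709 of 15035 regions (64.6%) fell in chains of 2 or more, and 394 chains had 5 or more regions. No such share was computed for all peaks or for positions placed at random. The density of the regions enters it and was not tested. The longest ran over 85409 bp with 16 regions near D330050G23Rik (chr2:116913712-116999120). The next were 83981 bp with 13 regions upstream of Bach1, a heme-responsive repressor, and near Map3k7cl (chr16:87611683-87695663), and 75408 bp with 14 regions near Prkar2b, a protein kinase A subunit, and Pik3cg, the gamma subunit of phosphoinositide 3-kinase of leukocytes (chr12:32088666-32164073). The chain with the most regions, 18, lay near Atf3, a stress-induced ATF/CREB family factor, and Nenf (chr1:191230374-191292747) and was picked after its value was seen. It held 10 C/EBPα peaks in control and 13 after IL-4, 13 and 11 IRF8 peaks, and 4 and 2 JUNB peaks.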

How the data were processed

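C/EBPα, IRF8 and JUNB were each mapped by ChIP-seq in 1 control and 1 IL-4-treated BMDM sample. According to the methods of the study and the submitters' processing notes, the authors aligned reads to mm10 with BWA 0.7.10, used SAMtools 0.1.19, called peaks per sample with MACS2 2.0.10 at a q-value limit of 0.01, removed ENCODE blacklisted regions and annotated the peaks with HOMER 4.2. The Peak Score was used as deposited by the authors. It is a score whose scale the sources used here do not state, so no ratio of scores was formed. Read numbers were not given in the sources used here, and a weak peak missing from a list may lie just under the limit of the caller. A deeper library of a pair can list more such peaks.

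Peaks were selected by the deposited annotation and distance. The members and all gene lists were chosen with earlier results of these data known. Peaks overlapping by at least 1 bp counted as the same site, and one-to-one pairs were made by largest overlap. Sequence was read from GRCm38, the assembly named mm10, in 200 bp centre windows. The background was every 1 kb position of that genome outside soft-masked repeats that passed the same rule, with RefSeq start sites, and letters were counted in windows at 24445 of these positions. RefSeq distances came within 10 bp of the deposited ones for 68.0% to 69.7% of the peaks and on the same side for 92.4% to 93.3%, since the 2 gene sets differ in part. GENCODE vM21 was used for gene bodies.

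Named were the 3 highest-scoring peaks of each factor in each class (both conditions, IL-4 only, control only), the 8 genes with the most regions, the 4 genes of each list with the most regions, and the genes at the 3 longest chains. Regions of named genes that the text singles out were picked after their values were seen. Centre sequences were printed for the first peak of a class outside chromosome 18. Some items that these rules pick are not reported here. The tools were pysam 0.24.0, bedtools 2.31.1, scipy 1.17.1 and pandas 2.3.3 in Python 3.11.15, and the scripts were tested on simulated data. Alternatives changed the overlap, the score minimum, list length, repeats, distance limit, gene set, score scale and window.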

Additional observations from a re-analysis of the deposited data

Results flagged for a closer look

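The number of near intergenic peaks after IL-4 was higher than in control for IRF8, lower for JUNB and almost the same for C/EBPα. The ratio was 1.015 for C/EBPα (6503 against 6404 peaks) and 1.104 for IRF8 (9918 against 8981), and 0.579 for JUNB (659 against 1138). The ratios over the whole lists were 1.005, 1.121 and 0.590. With 1 sample of each factor in each condition, the difference between factors was not tested, and depth and library kit cannot be told apart from IL-4.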

How the results depend on the processing

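No paired analysis was possible because each antibody had 1 sample per condition, and for the same reason no replicate could be left out. Recomputed were the retained, IL-4-only, shared and upstream shares, the score differences and the shares of windows with letters. The gene lists, chains, regions and differences by partner or own letters were not. Of 54 recomputed shares and score differences, 30 stayed within their interval and 24 moved. Of 28 recomputed shares of letters, 5 stayed and 23 moved, including every share in windows of 100 bp: C/EBP letters in C/EBPα control peaks went from 34.3% to 25.5% and IRF letters in IRF8 control peaks from 8.81% to 5.47%. Requiring an overlap of 50% of the shorter peak gave a retained share of 79.0% and an IL-4-only share of 28.8% for IRF8, and 58.7% for C/EBPα peaks with IRF8. A minimum score of 5 in every list gave an IL-4-only share of 23.3% for IRF8 and a retained share of 30.8% for JUNB. It also gave 58.4% for C/EBPα with IRF8, 72.2% for JUNB with C/EBPα, 79.8% for JUNB with IRF8, and a median score difference of 1.27 for IRF8. Lists reduced to equal length by score gave retained and IL-4-only shares of 78.0% and 22.8% for IRF8 and of 47.3% and 50.7% for JUNB, with 80.3% of JUNB peaks overlapping C/EBPα and 86.8% IRF8. JUNB retention stayed below that of the other factors. Including repeats and CpG islands gave retained shares of 80.2% for C/EBPα and 79.7% for IRF8. A distance limit of 50 kb gave upstream shares of 76.5% for both C/EBPα and IRF8 and 74.3% for JUNB. GENCODE start sites gave 62.6%, 62.3% and 61.2%, against 58.9% of the genome positions, so the upstream share belongs to the gene set. By rank percentile the median difference of C/EBPα pairs was -0.6 points, against 0.01 in score units. The causes of these shifts were not tested.

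Unknown depth and the caller's limit bear on every share of peaks found in 1 condition, since these peaks scored low. STAT6-type letters in windows of 100 bp, chosen after seeing the data, were in 13.3%, 9.01% and 14.9% of IL-4-only and 1.76%, 1.92% and 2.47% of control-only peaks of C/EBPα, IRF8 and JUNB.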

Other observations

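The spacing of the STAT6-type letters was varied after the data had been seen. With 4 bases between TTC and GAA, the letters were in 22.2% of IL-4-only and 4.35% of control-only near intergenic C/EBPα peaks. With 3 bases they were in 11.9% and 5.94%. With 2 bases the shares were 7.83% and 7.44%, with 5 bases 6.33% and 6.77%, and with 6 bases 7.53% and 8.53%. IRF8 gave 15.3% and 4.31% with 4 bases, 10.2% and 6.00% with 3, and 7.05% and 5.77% with 5. JUNB gave 23.6% and 5.49% with 4 bases, 12.4% and 6.32% with 3, and 5.79% and 5.77% with 5. The difference between the classes was thus seen at a spacing of 4 and, smaller, of 3 bases.

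Letters in regions named by the factors present in control followed the combination. AP-1 letters were in 75.3% of the 97 regions with JUNB alone and 45.2% of the 880 regions with all 3 factors. C/EBP letters were in 41.6% of regions with C/EBPα alone, 26.2% with C/EBPα and IRF8, and 7.16% with IRF8 alone. The composite letters were in 17.4% of regions with IRF8 alone and 1.52% of those with C/EBPα alone, against 488 of 24445 genome windows. The PU.1-type core was about as frequent with IRF8 alone (28.5%) as with C/EBPα and IRF8 (29.0%), and less so with C/EBPα alone (16.7%).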
